A study of Mus musculus with 18 samples.

Results

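Knockdown (KD) of *Stag1* with the 3p siRNAs was compared with scrambled siRNA (SCR) in mouse embryonic stem cells (mESCs), over all genes. The comparison was chosen by the labels alone and rests on 4 libraries of the 18 in the series, namely 3p and SCR in replicate set 2 and in replicate set 3. The cells were male E14 mESCs grown with serum (FCS) and LIF, transfected for 24 h, and total RNA was sequenced after rRNA depletion. SCR cells received a scrambled siRNA, and 3p cells an equimolar mix of 3 commercial siRNAs to the 3′ end of *Stag1*. By their position, these siRNAs were meant to miss transcripts of *Stag1* that end before the 3′ part. The SP siRNAs (SmartPool) are a pool of commercial siRNAs to *Stag1* that, per the methods, shares catalogue numbers with 3p, and 5p is a single custom siRNA to the 5′ end. SATS, an enzymatically prepared pool, was used only in the shared fit, and each set had 1 further control, untreated cells in set 2 and luciferase siRNA in set 3. A gene-level value sums all isoforms of a gene, so isoforms of *Stag1* were not told apart.

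STAG1 (also SA1) is one of the alternative STAG subunits of cohesin, the ring-shaped complex that holds sister chromatids together and extrudes loops of chromatin, and STAG2 is the other one found in dividing cells. mESCs in serum and LIF hold a naive state of pluripotency kept up by LIF, which signals through LIFR and STAT3 to factors such as TFCP2L1, KLF4 and ESRRB. FGF4, made by the cells themselves, signals through ERK and opens the way to differentiation. SPRY and DUSP proteins are feedback inhibitors of that pathway.

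The 3p and SCR libraries held 34824093 to 40072547 reads on genes, of which the ribosomal precursor *Rn45s* took 16.4% to 21.9%. Values are reads divided by a size factor of the library, given here as normalized values. Differences are in log2(value + 1), as 3p minus SCR, with the standard error (SE) of a limma fit that holds the replicate set as a block, over 16490 genes. A gene is called where its p, adjusted by Benjamini-Hochberg over those genes, is under 0.05. The study calls its 3p libraries independent replicates, without saying whether they came from separate cultures. With 2 libraries per group, p-values measure only the spread between these samples, which may be technical.

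*Stag1* (chr9:100597709-100958544, GRCm38.p6) was the most reduced gene. Its normalized value was 1876 in SCR and 392 in 3p of set 2, and 2113 and 365 in set 3. The untreated library of set 2 gave 1619 and the luciferase library of set 3 gave 2199.8, so the 3p libraries lay below all of the controls. The difference was −2.39 ± 0.10 (SE, limma, 95% interval −2.60 to −2.19, adjusted p = 1.5e-08, n = 2 per group), and −2.26 and −2.53 within sets 2 and 3. Among 11022 genes whose mean value over the 4 libraries reached 50, *Stag1* was the 1 gene (0.00907%) at least 2-fold lower in both sets, and 0 genes (0%) were at least 2-fold higher in both. *Stag2*, the paralog, had values of 1811 and 2895 in SCR and of 2004 and 3265 in 3p, a difference of 0.16 ± 0.08 (adjusted p = 0.536 by limma). *Stag1* was the 1 called gene of the 24 tested on the list of cohesin and CTCF, by limma and by edgeR and DESeq2 with the block. The median of that list was 0.02, with 8 genes lower and 8 higher in both sets, beside 29.7% and 25.9% of all genes. At an unadjusted p under 0.05, 3 members were higher and 1 lower, beside 10.4% of all genes in either direction.

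Of the 16490 genes, 47 were called, which is 0.285%. There were 39 lower in 3p (0.237% of genes tested) and 8 higher (0.0485%). At an unadjusted p under 0.05 there were 1720 genes (10.4%). Besides *Stag1*, the genes that fell did so by 1.33-fold to 1.94-fold and those that rose did so by 1.41-fold to 1.74-fold. Without the replicate block, *Stag1* alone was called (0.00606%). With the block, edgeR called 50 genes (0.303%) and DESeq2 142 (0.861%), 45 and 47 of them among the 47, all in the same direction. In 34 of the 39 lower genes both 3p libraries lay below both SCR libraries, against 11.7% of genes tested. In 5 of the 8 higher genes both 3p libraries lay above both SCR libraries, against 9.61%. The other 5 and 3 overlapped because the sets differed in level while 3p and SCR differed within each set. The calls used these same values, so the higher shares among called genes are no separate support. The called genes lie on most chromosomes, with at most 5 on 1 chromosome.

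**Figure D1:**
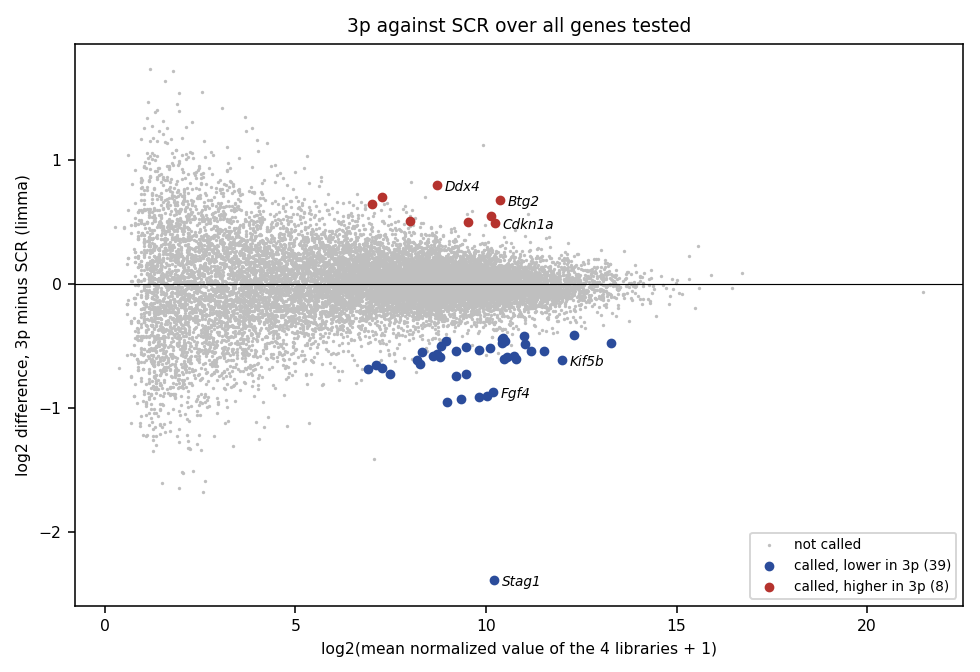
Each point is 1 of the 16490 genes tested, with log2 of its mean normalized value over the 4 libraries on the x axis and the log2 difference of 3p minus SCR on the y axis. *Stag1* at −2.39 stands apart from the other 38 genes called lower (blue), and the 8 called higher (red) reach 0.80, while grey genes at low levels spread widely and were not called.

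Genes of FGF and LIF signalling were among those that fell. *Fgf4* (chr7:144861386-144865245), the autocrine ligand, had values of 1505 and 1477 in the SCR libraries and of 981 and 672 in 3p. The untreated library gave 1624 and the luciferase library gave 1369.6, so all 4 control libraries were above both 3p libraries. It fell by 0.88 on the log2 scale (SE 0.12, adjusted p = 0.00937 by limma), 0.62 in set 2 and 1.14 in set 3 in size. *Spry4*, a feedback inhibitor of the same pathway, went from 1704 to 1369 in set 2 and from 2397 to 1322 in set 3. Its difference was −0.59 ± 0.11 (adjusted p = 0.0433 by limma), and the difference of set 3 was the larger one. *Spry4* stayed called under 4 of the 9 alternative settings with the block that are given below, and *Fgf4* under 9. These 2 were the called members of the 31 tested on the list of FGF and ERK feedback, of which 18 were lower in both sets and 5 higher in both. Of all genes, 29.7% were lower in both sets and 25.9% higher in both. The members of this and the other gene lists were chosen with earlier results of these data known, so such shares describe and do not test. The median of this list was −0.09 (−0.03 in set 2 and −0.19 in set 3), and that of all genes −0.00. For this list luciferase minus SCR gave −0.07 and untreated minus SCR −0.00. Next by p were *Map2k1*, which encodes the kinase MEK1 (−0.33 ± 0.09, adjusted p = 0.142 by limma), and *Etv4*, an ERK-responsive transcription factor (−0.30 ± 0.09, adjusted p = 0.177 by limma), neither of which passed.

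*Lifr* (chr15:7090610-7197489), the receptor through which LIF acts, had values of 1886 and 1557 in SCR and of 1289.6 and 976 in 3p. Both 3p libraries were below both SCR libraries and below the untreated (1774) and luciferase (1635) libraries. The difference was −0.61 ± 0.08 (adjusted p = 0.005 by limma), and it was of like size in set 2 (−0.55) and set 3 (−0.67). *Lifr* was the 1 called gene of the 22 on the list of the LIF and STAT3 pathway. Of these, 12 were lower in both sets and 3 higher in both, beside 29.7% and 25.9% of all genes. The median of the list was −0.13, with −0.05 in set 2 and −0.19 in set 3. Luciferase minus SCR gave −0.02 and untreated minus SCR 0.02. *Tfcp2l1*, a target of STAT3, was at 5401 and 3096 in SCR and at 4113 and 2357 in 3p. Its difference of −0.39 was the same in both sets to 2 decimals, but it did not pass (SE 0.09, adjusted p = 0.0834 by limma). *Stat3* itself differed by −0.29 ± 0.09 (adjusted p = 0.227 by limma).

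Of 57 measured genes on the list of naive pluripotency, *Lifr* and *Fgf4* were called lower and 0 were called higher. Over all genes, 0.237% were called lower and 0.0485% higher. The block fits gave 2 lower and 0 higher by edgeR and 6 lower and 1 higher by DESeq2. The list's median was −0.16, with 35 genes lower in both sets and 9 higher in both, beside 29.7% and 25.9% of all genes. The median was −0.08 in set 2 and −0.26 in set 3, beside −0.09 for luciferase minus SCR in set 3 and 0.06 for untreated minus SCR in set 2. In set 3 the luciferase control thus lay on the same side of SCR as 3p did. At an unadjusted p under 0.05 there were 23 lower and 4 higher, beside 10.4% of all genes in either direction. The members next by p did not pass. *Tet2*, a dioxygenase that oxidizes 5-methylcytosine, was at 2225 and 1568 in SCR and 1615 and 1227 in 3p (−0.41 ± 0.09, adjusted p = 0.0946 by limma). *Prdm14*, a repressor that guards the naive state, was at 133 and 103 in SCR and 98.5 and 55.1 in 3p (−0.66 ± 0.16, adjusted p = 0.0972 by limma). *Esrrb* differed by −0.38 ± 0.10 (adjusted p = 0.125 by limma). *Lefty1*, an inhibitor of Nodal signalling, had the opposite sign, with 311 and 1349 in SCR and 418 and 1935 in 3p (0.47 ± 0.10, adjusted p = 0.0834 by limma).

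The core factors of pluripotency did not pass. *Pou5f1* (OCT4) had values of 7545 and 8967 in SCR and of 8419 and 7546 in 3p, higher in one set and lower in the other. Its difference was −0.05 ± 0.11 (adjusted p = 0.927 by limma). *Nanog* was at 4069 and 2399.9 in SCR and at 3356 and 2116 in 3p, a difference of −0.23 ± 0.10 that did not pass (adjusted p = 0.417 by limma). *Sox2* differed by −0.09 ± 0.10 (adjusted p = 0.798 by limma). Over the 15 genes on the list of core pluripotency 0 were called by limma, edgeR or DESeq2 with the block. At an unadjusted p under 0.05, 4 were lower and 0 higher, beside 10.4% of all genes in either direction. In both sets 10 were lower and 0 higher, beside 29.7% and 25.9% of all genes. The median was −0.11, with −0.05 in set 2 and −0.18 in set 3. Luciferase minus SCR gave −0.09 and untreated minus SCR 0.05. On the list of formative and primed genes *Spry4* alone was called among 50, with a median of −0.04. In both sets 16 were lower and 15 higher, beside 29.7% and 25.9% of all genes. The 27 measured genes of the two-cell state had 0 calls by limma, edgeR or DESeq2 with the block (1 higher and 1 lower at an unadjusted p under 0.05), and 4 of them reached a mean value of 50.

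**Figure D2:**
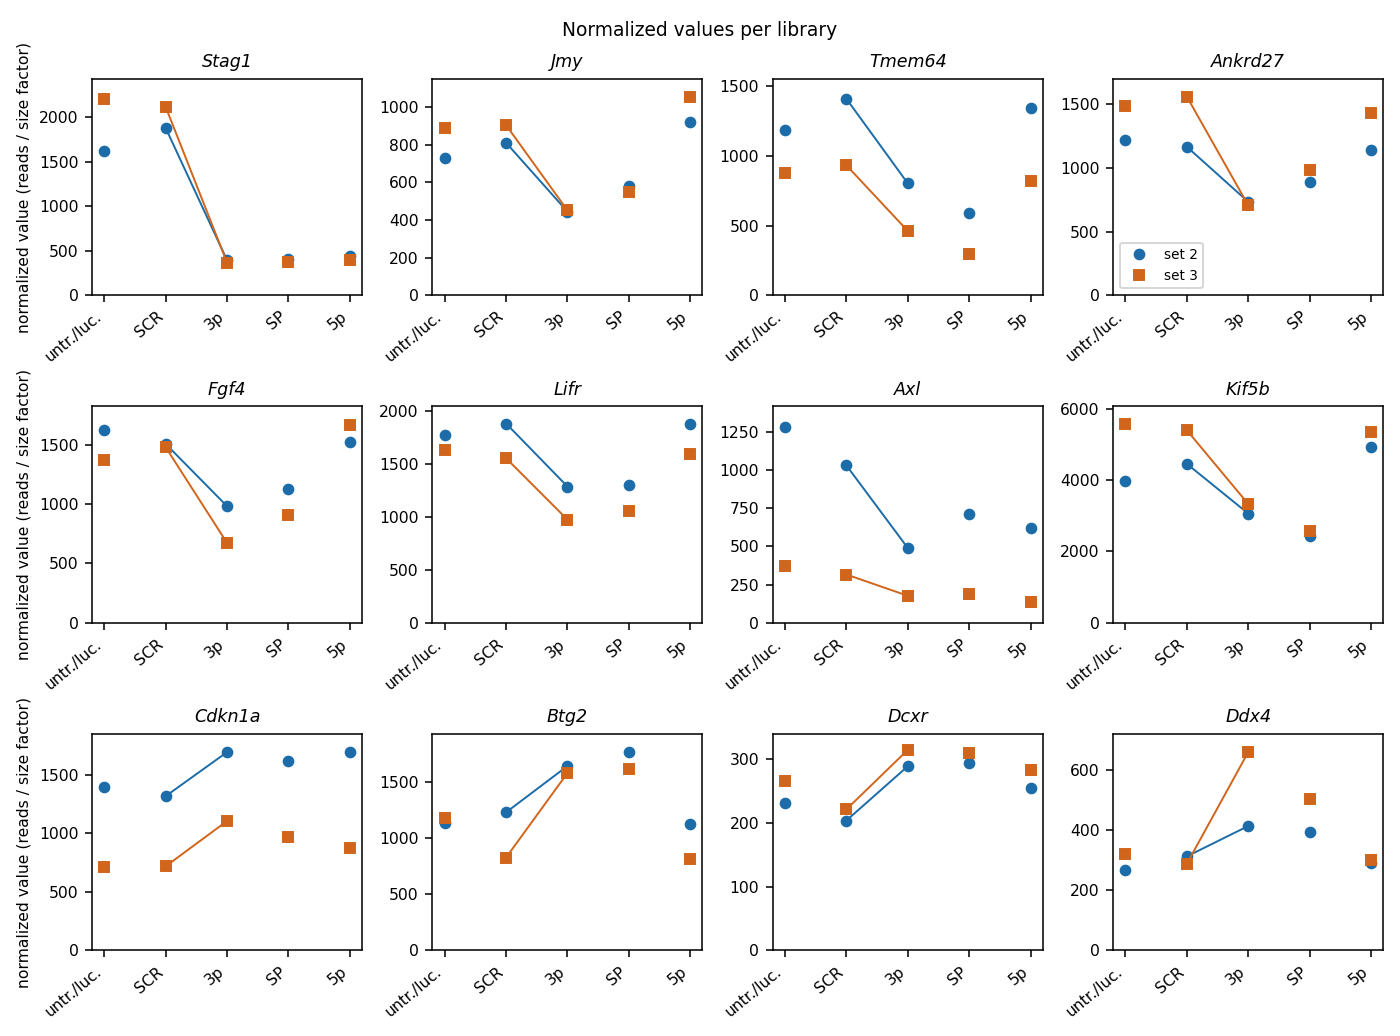
Each panel gives 1 gene, with the library on the x axis (untreated of set 2 and luciferase of set 3 share the first place) and the normalized value on a linear y axis from 0, with set 2 as circles and set 3 as squares and a line from SCR to 3p. In *Stag1*, *Jmy* and *Fgf4* both 3p points lie below all SCR, untreated and luciferase points, while in *Axl* the sets differ so much in level that the 3p point of set 2 lies above the SCR point of set 3.

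The 6 genes with the smallest p after *Stag1* were on none of the lists. *Jmy* (chr13:93430097-93499808) encodes a nucleator of actin filaments that also binds p300. Its values were 809 and 903 in SCR and 444 and 451 in 3p, and it fell by 0.93 on the log2 scale (SE 0.09, adjusted p = 0.000387 by limma). The control libraries without an siRNA or with luciferase siRNA had 731 and 885, and 3p was below them in each set. *Tmem64* (chr4:15265820-15286753), which encodes a membrane protein of the endoplasmic reticulum, was at 1408 and 931 in SCR and at 802 and 461 in 3p (−0.91 ± 0.09, adjusted p = 0.000624 by limma). *Ankrd27* (chr7:35586226-35639237), which encodes the endosomal protein VARP, was at 1165 and 1559 in SCR and at 733 and 706 in 3p (−0.90 ± 0.10, adjusted p = 0.00164 by limma). In these 3 genes the 3p libraries did not overlap with the SCR libraries. *Axl*, a receptor tyrosine kinase, was at 1028 and 316 in SCR and at 489 and 177 in 3p. Its difference of −0.95 ± 0.13 (adjusted p = 0.00745 by limma) was the second largest fall, and the ratio was 47.5% of SCR in set 2 and 55.9% in set 3.

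The other genes that fell are described singly, since no list of their roles had been drawn up. *Fbxw2*, a substrate receptor of SCF ubiquitin ligases, was at 714 and 778 in SCR and at 453 and 437 in 3p (−0.74 ± 0.09, adjusted p = 0.00184 by limma). The ubiquitin ligase *Rnf138* fell to 66.7% and 54.2% of SCR in sets 2 and 3. *Rnf4*, a ligase that recognizes SUMO chains, fell to 70.2% and 67.3%, and the HECT ligase *Itch* to 71.8% and 72.1%. *Kif5b*, the ubiquitous heavy chain of kinesin-1, was at 4455 and 5396 in SCR and at 3062 and 3331 in 3p (−0.62 ± 0.07, adjusted p = 0.00234 by limma). *Lin7c*, a scaffold protein of cell junctions, was at 2036 and 2253 in SCR and at 1369 and 1449 in 3p (−0.60 ± 0.07, adjusted p = 0.00184 by limma). *Abca1*, which exports cholesterol from cells, went to 75.3% of SCR in set 2 and 53.9% in set 3. It was the 1 called gene among 36 on the list of cholesterol synthesis and uptake, beside 0.237% of all genes called lower. The median of that list was 0.05, with 16 genes higher and 7 lower in both sets, beside 25.9% and 29.7% of all genes. *Slc29a1*, a nucleoside transporter, was at 75.5% and 58.3%. *Slc19a2*, a thiamine transporter, was at 69.9% and 69.3% of SCR.

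*Med1* and *Med14* encode subunits of the Mediator complex, which links transcription factors to RNA polymerase II. They fell to 73.4% and 75.3% of SCR in set 2 and to 74.2% and 71.9% in set 3. *Med14* stayed called under 5 of the 9 alternative settings with the block, and *Med1* under 9. No list of Mediator genes was drawn up, so the complex as a whole was not examined. The splicing regulator *Rbfox2* went from 2748 to 2081 in set 2 and from 2756 to 1706 in set 3 (−0.55 ± 0.09, adjusted p = 0.0181 by limma). *Wnt7b*, a Wnt ligand, fell to 71.8% and 63.4% of SCR, and *Bcl9*, a coactivator of beta-catenin, to 74.6% and 65.8%. Over the 28 genes tested on the list of Wnt targets and regulators 0 were called by limma and edgeR and 1 by DESeq2 (3 higher and 2 lower at an unadjusted p under 0.05), and the median was 0.06. *Nup153* of the nuclear pore had the smallest fall among the called genes, from 5328 to 3939 and from 6300.3 to 4825 (−0.41 ± 0.08, adjusted p = 0.0467 by limma). The other genes called lower were *Ankrd33b*, *Arhgef12*, *Camk1d*, *Chpf*, *Dnajb5*, *Entpd7*, *Gcnt1*, *Gpalpp1*, *Kbtbd2*, *Mob1a*, *Nudcd3*, *Pak2*, *Parp11*, *Rnf141*, *Tmem263* and *Actn4*. Their 3p values lay between 55.4% and 79.8% of SCR over both sets.

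The 8 genes that rose included targets of p53. *Cdkn1a* (chr17:29090979-29100722), which encodes the cell cycle inhibitor p21, went from 1316 to 1692 in set 2 and from 718 to 1104 in set 3. It rose in each set, but the 3p library of set 3 lay below the SCR library of set 2 (0.49 ± 0.09, adjusted p = 0.0378 by limma). The untreated library was at 1397 and the luciferase library at 709. *Btg2* (chr1:134074865-134079155), an antiproliferative gene, went from 1228 to 1640.3 and from 826 to 1578, with the larger rise in set 3 (0.67 ± 0.11, adjusted p = 0.0284 by limma). The luciferase library, at 1179, was itself above SCR of its set and below 3p. *Dcxr*, which encodes a reductase of sugars and dicarbonyls, went from 203 to 288 and from 221 to 314 (0.50 ± 0.09, adjusted p = 0.0426 by limma). These were the 3 called genes of 33 on the list of p53 targets, and 0 were called lower. Over all genes 0.0485% were called higher. In both sets 20 of the 33 were higher and 7 were lower, beside 25.9% higher and 29.7% lower of all genes. The members of the list were chosen with earlier results of these data known, so these comparisons describe and do not test. The list's median was 0.15 (0.08 in set 2 and 0.25 in set 3), beside 0.09 for luciferase minus SCR and −0.01 for untreated minus SCR. *Ddit4*, next by p, was at 971 and 693 in SCR and 1299.9 and 897 in 3p and did not pass (0.40 ± 0.08, adjusted p = 0.0739 by limma).

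Promoters are shown for a pair of the called p53 targets, 1 with and 1 without the letters of the motif p53 binds. The p53 half-site, 10 bases that p53 binds as a pair of copies, was searched on both strands in windows from 250 bases before to 50 after a RefSeq start (GRCm38.p6). It occurs in 7.01% of the 12629 promoters of genes tested, in 3 of the 30 promoters found for genes called lower and in 1 of the 8 of genes called higher. The window of the upstream *Cdkn1a* start (chr17:29090729-29091028, plus strand) holds 2 matches, in capitals, and that of the *Btg2* start (chr1:134079106-134079405, minus strand) holds none. The windows of the downstream *Cdkn1a* start and of *Dcxr* hold none either. A match describes letters and not a bound site.
Cdkn1a: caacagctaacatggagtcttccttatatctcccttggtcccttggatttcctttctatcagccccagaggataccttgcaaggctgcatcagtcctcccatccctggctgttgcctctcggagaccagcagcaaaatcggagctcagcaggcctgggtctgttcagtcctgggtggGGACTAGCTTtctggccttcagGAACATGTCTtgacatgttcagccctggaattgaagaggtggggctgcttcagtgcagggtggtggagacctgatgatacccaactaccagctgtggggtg
Btg2: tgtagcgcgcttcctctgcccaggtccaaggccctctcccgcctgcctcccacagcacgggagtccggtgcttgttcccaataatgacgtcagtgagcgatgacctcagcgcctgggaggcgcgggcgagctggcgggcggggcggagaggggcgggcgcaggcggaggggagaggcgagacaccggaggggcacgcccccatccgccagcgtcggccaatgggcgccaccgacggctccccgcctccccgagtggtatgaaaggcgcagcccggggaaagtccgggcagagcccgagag

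Of the other 5 genes that rose, *Ddx4* and *Stk31* are known from germ cells. *Ddx4*, the germ cell RNA helicase Vasa, was at 313 and 288 in SCR and at 414 and 659.8 in 3p, the largest rise (0.80 ± 0.14, adjusted p = 0.0407 by limma), and it was larger in set 3. *Stk31*, which encodes a protein kinase, went from 109 to 160.0 and from 90.4 to 152 (0.64 ± 0.12, adjusted p = 0.0458 by limma). *Ndufa1*, a subunit of respiratory complex I, went from 154 to 277 in set 2 and from 73.4 to 108 in set 3 (0.70 ± 0.13, adjusted p = 0.0407 by limma), the 1 gene of the 8 whose rise was larger in set 2. *Ankrd52*, a regulatory subunit of protein phosphatase 6, rose to 129% and 165% of SCR. *Myl9*, a light chain of myosin, rose to 134% and 149.9% of SCR. *Ankrd52*, *Cdkn1a* and 8 other called genes overlap exons of a gene on the opposite strand, *Entpd7*, *Actn4* and *Nudcd3* those of the coding genes *Cox15*, *Capn12* and *A730071L15Rik*. The strand setting of the count was stated for paired-end samples, and not which libraries these were.

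Set 3 had the larger differences. The median over the 39 genes that fell was −0.51 in set 2 and −0.66 in set 3, and 31 of the 39 fell more in set 3. The median over the 8 that rose was 0.42 and 0.67. Over the 11022 genes that reached a mean value of 50, the standard deviation of the difference was 0.19 in set 2 and 0.22 in set 3. The same spread was 0.13 for luciferase minus SCR and 0.16 for untreated minus SCR, each with 1 library a side. In set 3 the 3p value of all 39 lower genes was below the luciferase value, and in set 2 it was below the untreated value. The 8 higher genes were above them in the same way. Luciferase minus SCR ranged from −0.19 to 0.25 over the 39 genes, and untreated minus SCR from −0.48 to 0.31. These controls are compared with the same SCR libraries as 3p and have no replicate. The genes were called by the same 3p values, so their place beyond these controls was largely set by the call. It is no separate support.

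**Figure D3:**
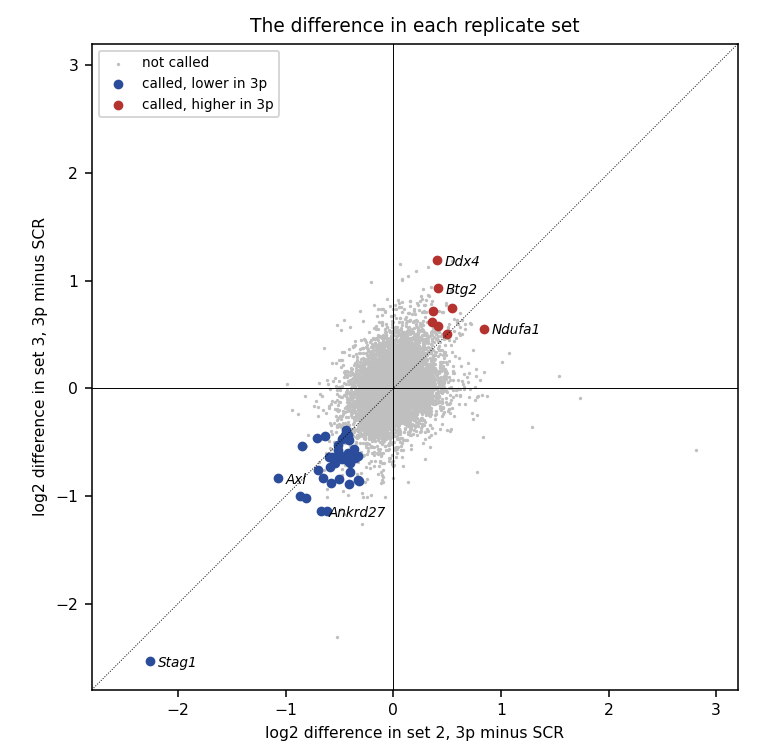
Each point is a gene whose mean normalized value reaches 50, or a called gene, with the log2 difference of 3p minus SCR in set 2 on the x axis and in set 3 on the y axis, and the dotted line marks equal differences. All called genes lie below 0 on both axes or above 0 on both axes, *Stag1* at −2.26 and −2.53, and most of them lie farther from 0 in set 3 than in set 2.

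A fold of at least 1.5 in both sets was seen in 15 genes that were lower and 8 that were higher, of those 11022 genes (0.136% and 0.0726%). Of the 15, 10 were called, namely *Stag1*, *Jmy*, *Tmem64*, *Ankrd27*, *Fbxw2*, *Axl*, *Fgf4*, *Dnajb5*, *Entpd7* and *Rnf141*. The 8 higher genes were not called by limma. They were named for this fold after their values were seen. *Satb1*, a chromatin organizer, was nearest to the threshold, at 105 and 251 in SCR and at 159 and 386 in 3p (0.61 ± 0.12, adjusted p = 0.0524 by limma). *Synm*, *Ctxn1*, *Tdrkh*, *Acot1*, *Prr19*, *Neurod1* and *Scn3b* were the others, at adjusted p from 0.0586 to 0.298 by limma.

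The remaining lists gave few calls. Where limma called 0, edgeR with the block also called 0, save for *Ago1*, and DESeq2 with the block called 0 to 2 per list. Of all genes, 25.9% were higher and 29.7% lower in both sets, and 10.4% had an unadjusted p under 0.05 in either direction. Over the 83 cytosolic ribosomal protein genes 0 were called (10 higher and 0 lower at an unadjusted p under 0.05), with 44 higher and 2 lower in both sets. Their median was 0.20 in set 2 and 0.00 in set 3, so the shift was seen in 1 of the sets. Among 36 genes of RNA polymerase I and the nucleolus 0 were called (0 higher and 2 lower unadjusted), with 15 lower and 0 higher in both sets, a median of 0.02 in set 2 and of −0.15 in set 3, and *Rn45s* differed by −0.07 ± 0.32 (adjusted p = 0.966 by limma). Of 40 genes of S phase 0 were called (0 higher and 5 lower unadjusted), with a median of −0.08. In both sets 19 of them were lower and 3 higher, and luciferase and untreated minus SCR gave medians of −0.06 and −0.08. Of 42 genes of mitosis 0 were called (0 higher and 1 lower unadjusted), with a median of 0.00. In both sets 11 of these were lower and 16 higher. *Btg2* was also the 1 called gene of 29 on the immediate early list. *Ago1*, which encodes an Argonaute protein of RNA interference, was at 1506 and 1969 in SCR and at 1859 and 3477 in 3p (0.56 ± 0.11, adjusted p = 0.0512 by limma), the lowest p of the 20 genes tested on its list, where limma called 0 and edgeR called *Ago1*. At an unadjusted p under 0.05 there were 3 higher and 1 lower. Lists for Nodal and activin, BMP targets, DNA methylation, Polycomb, interferon and RNA sensors, the integrated stress response, glycolysis and hypoxia, imprinted genes, collagens and laminins, and protein folding and secretion had 0 calls by limma, with 0 to 6 members higher and 0 to 4 lower at an unadjusted p under 0.05.

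**Figure D4:**
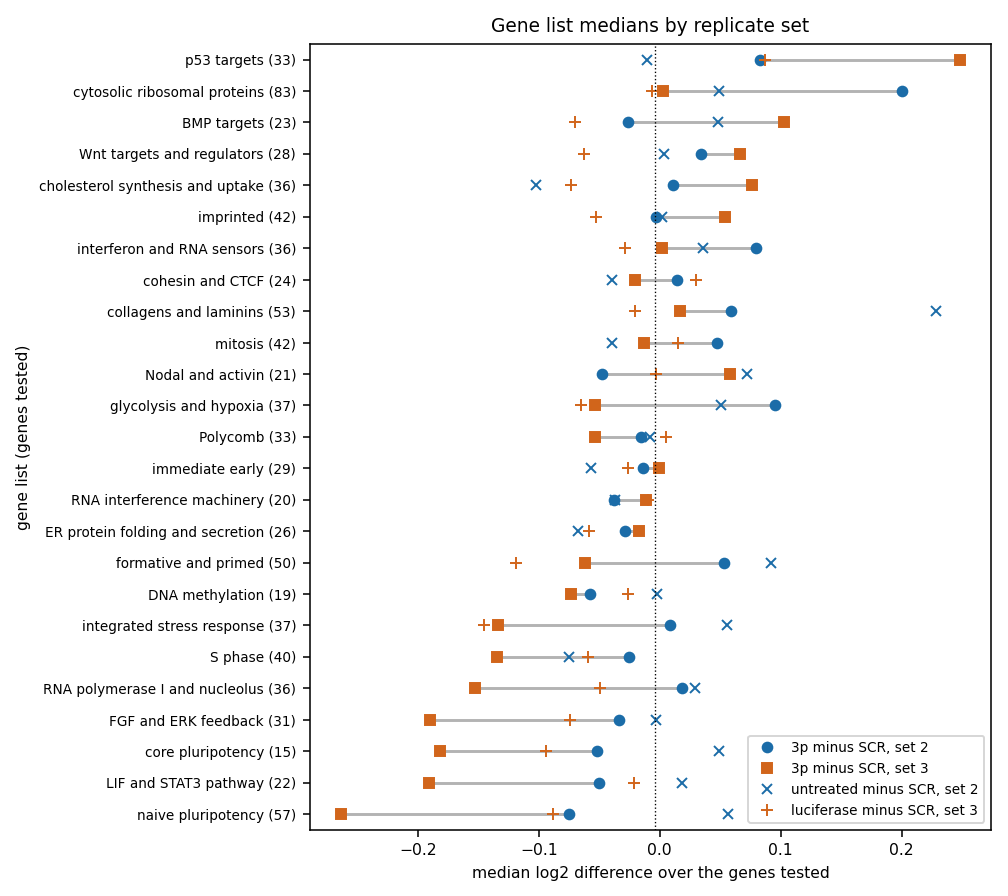
The median log2 difference is on the x axis and the gene list, with the number of genes tested, on the y axis, for the 25 lists with at least 15 genes that reach a mean value of 50. Filled points are 3p minus SCR in set 2 (circles) and set 3 (squares), crosses are untreated minus SCR in set 2 and plus signs luciferase minus SCR in set 3, and the dotted line is the median of all genes. Naive pluripotency is lowest, at −0.08 and −0.26, and p53 targets, at 0.08 and 0.25, are highest in set 3, while cytosolic ribosomal proteins, at 0.20, are highest in set 2, with the 1-library controls spread over part of the same range.

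The labelled cell type held in all 4 libraries, with *Pou5f1* between 7545 and 8967. Of the markers of other cell types 0 were called by limma or edgeR and 1, on the mesoderm and streak list, by DESeq2, with 0 to 2 per list and direction at an unadjusted p under 0.05. The 27 markers of primitive endoderm with values, tested or not, summed to 41780 to 42364 in set 2 and 29801 to 30266 in set 3, over 3p and SCR. The 19 of fibroblasts summed to 25783 to 26875 in set 2 and 9731 to 9976 in set 3. The 14 of trophectoderm summed to 26012 to 28013 and 8920.0 to 9244. The 24 of mesoderm and streak summed to 1898 to 1992 and 1484 to 1535, and the 20 of neuroectoderm to 4989.9 to 5584 and 4468 to 4515. None of these markers was at 0 in all 4 libraries, and the sums differed more between sets than between 3p and SCR, except that neuroectoderm in set 2 was higher in 3p by more than SCR differed between the sets. In bulk RNA, fewer cells of a type and less RNA per cell cannot be told apart.

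3p and SP, which share catalogue numbers, differed in 16 genes (0.0970% of genes tested), all of them higher in 3p, and in 0 genes lower. *Stag1* differed by −0.04 ± 0.10 (95% interval −0.24 to 0.17, adjusted p = 0.991 by limma), with 392 and 365 in 3p. The called difference was largest in *Akap5*, a scaffold of protein kinase A, at 155 and 84.1 in 3p and 61.8 and 41.2 in SP (1.17 ± 0.19, adjusted p = 0.0315 by limma), with 190.4 and 76.6 in SCR. *Nol7*, a nucleolar protein, was at 711 and 475 in 3p and 391 and 276 in SP (0.82 ± 0.11), and *Impact*, a regulator of the translation kinase GCN2, at 3214 and 3711 in 3p and 1971 and 2230.4 in SP (0.72 ± 0.07). In SCR *Nol7* was at 544 and 514 and *Impact* at 3378 and 3926, and their 3p minus SCR differences of 0.13 and −0.08 did not pass (adjusted p = 0.733 and 0.754 by limma). *Tmem64* was lowest in SP, with 589 and 299, beside 802 and 461 in 3p and 1408 and 931 in SCR (3p minus SP 0.53 ± 0.09, adjusted p = 0.0476 by limma). Over the 39 genes that fell against SCR, 3p minus SP ranged from −0.37 to 0.53 with a median of −0.14. Without the block 0 genes were called by limma (183 at an unadjusted p under 0.05) and 0 by edgeR (169), and 4 by DESeq2.

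3p and 5p differed in 537 genes (3.26%), 322 higher in 3p (1.95%) and 215 lower (1.30%). *Stag1* differed by −0.15 ± 0.10 (95% interval −0.36 to 0.05, adjusted p = 0.489 by limma). *Stag2* was higher in 3p than in 5p (0.56 ± 0.08, adjusted p = 0.0025 by limma). It was at 2004 and 3265 in 3p, 1434 and 2092 in 5p and 1811 and 2895 in SCR. Its 3p minus SCR difference of 0.16 did not pass (adjusted p = 0.536 by limma). Most genes that fell against SCR were also called lower in 3p than in 5p, against 1.30% of genes tested. Over the 39 genes that fell, 3p minus 5p ranged from −1.14 to 0.04 with a median of −0.57. They were called by the same 3p values, so this is no separate support. *Jmy* was at 922 and 1053 in 5p, beside 444 and 451 in 3p (−1.14 ± 0.09). *Fgf4* was at 1523 and 1668 in 5p, beside 981 and 672 in 3p (−0.97 ± 0.12). *Lifr* differed by −0.63 ± 0.08 and *Bcl9* by −0.86 ± 0.08. *Axl* was at 622 and 137 in 5p and did not pass (0.01 ± 0.13, 95% interval −0.27 to 0.29, adjusted p = 0.985 by limma). *Abca1* did not pass either (0.04 ± 0.11, 95% interval −0.20 to 0.28, adjusted p = 0.915 by limma). The largest differences upward, among genes that reach a mean value of 50, were in *Sycp3*, of the synaptonemal complex, at 252 and 357 in 3p, 71.6 and 90.7 in 5p and 213 and 264 in SCR (1.88 ± 0.17), and in *Selt*, at 2139 and 2596 in 3p, 1013 and 648 in 5p and 2232 and 2322 in SCR (1.54 ± 0.16). Their 3p minus SCR differences of 0.34 and 0.05 did not pass (adjusted p = 0.503 and 0.950 by limma). Among p53 targets, *Btg2* was higher in 3p than in 5p (0.75 ± 0.11, adjusted p = 0.0025 by limma) and *Cdkn1a* was not called (0.17 ± 0.09, 95% interval −0.02 to 0.35, adjusted p = 0.373 by limma). The comparisons with SP and with 5p use the same 3p libraries as the comparison with SCR. Without the block 0 genes were called by limma (674 at an unadjusted p under 0.05) and 0 by edgeR (632), and 88 by DESeq2.

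**Figure D5:**
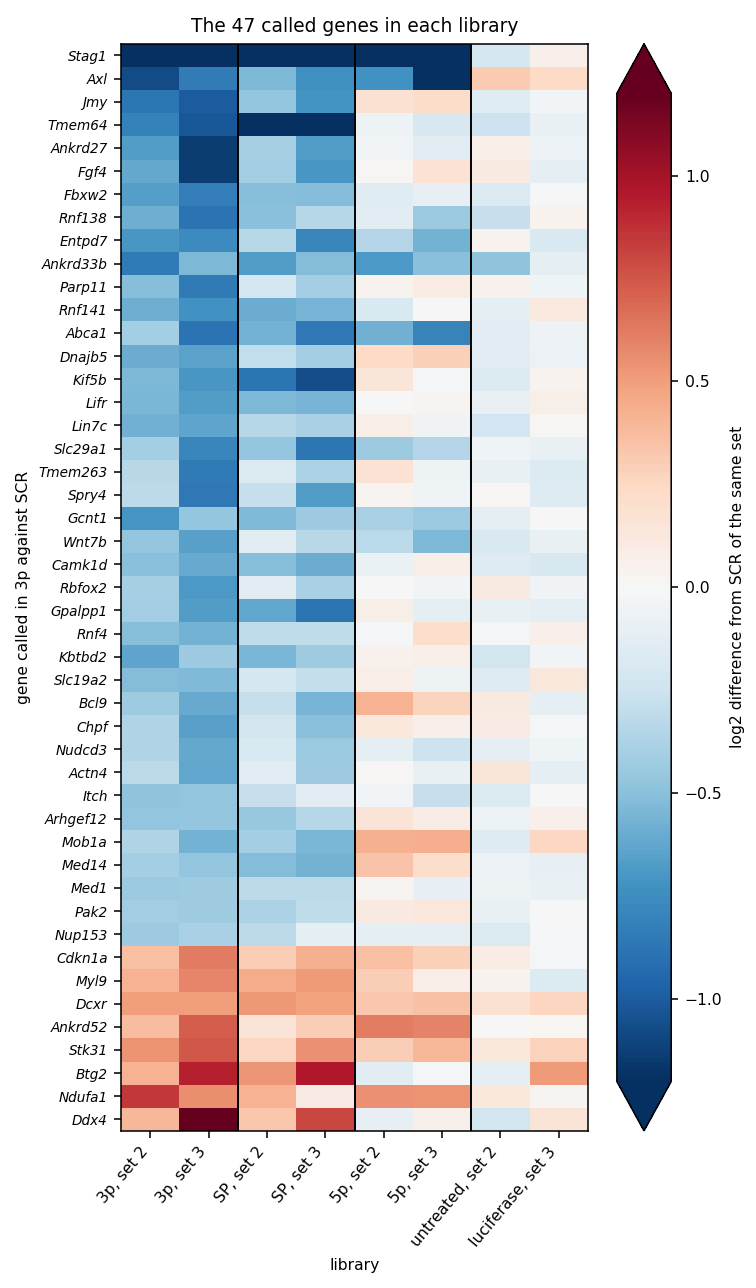
Each row is 1 of the 47 genes called in 3p against SCR, ordered by its difference, each column is a library, and the colour is the log2 difference from SCR of the same set, with the scale ending at −1.2 and 1.2. *Stag1* is dark blue under 3p, SP and 5p alike, *Jmy* and *Fgf4* are blue under 3p and SP and pale under 5p, *Axl* is blue under 3p, SP and 5p, and the untreated and luciferase columns are mostly pale.

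The genes that fell had longer 3′ UTRs, transcripts and gene spans at the median than the genes tested, with members on either side of the median over all genes. Annotation did not enter the choice. Their median 3′ UTR in GENCODE M21, taken from the transcript with the longest coding sequence, was 2557 bases (quartiles 1631 and 3583.5, n = 39). The 8 genes that rose had a median of 556 bases, and all tested genes with an annotated 3′ UTR 923. The genes that fell were also more highly expressed, with a median mean value of 901 against 194 over all genes tested. Among the 3559 genes whose level lay between the quartiles of the 39, the median was 1128 bases. The whole transcript had a median of 4606 bases in the genes that fell and 3241 in those genes of like level, and the gene span 44.98 and 27.2 kb. *Lifr*, with 6323 bases, *Jmy*, with 5325, and *Camk1d*, with 5529, had long ones, and *Fbxw2*, with 536, *Chpf*, with 404, and *Slc29a1*, with 472, had short ones. These lengths were looked at after the calls were known, their differences were not tested, and their part in the result was not tested either.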

How the data were processed

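The deposited values are a normalized signal. The authors used hisat2 (mm10, run through Nextflow), featureCounts for reads per gene and the size factors of DESeq2 1.14.1, by which the reads of each library were divided. Reads were recovered from these values by dividing by the value of 1 read, and 100% came out whole within 0.001 read. The 12 libraries of sets 2 and 3 held 32137666 to 45660840 reads on genes, which bounds counting error only.

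In R 4.3.3, limma 3.58.1 (lmFit, then eBayes with trend) was run on log2(value + 1) over the 10 libraries of SCR, SP, 3p, 5p and SATS in sets 2 and 3. The fit had the replicate set as a block and 4 residual degrees of freedom. Genes were kept if their values summed to 10 or more (16490 of 18659). For low genes the pseudocount makes log2 differences smaller than they were. Two-sided p-values were adjusted by Benjamini-Hochberg over all genes. Deviations of libraries of the same set from their group means correlated at 0.81 to 0.93 over 11019 genes (0.85 for 3p and SCR). Set numbers come from the labels, and with 2 libraries a group the deviations mirror each other.

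Genes named were *Stag1*, *Stag2*, all called genes and, from each list, the called members and those with the smallest p (3, or 12 for the naive list). Any others were named after their values were seen. The members of the gene lists were chosen with earlier results of these data known. edgeR 4.0.16 and DESeq2 1.42.0 were run on the recovered reads as alternatives. The fits were also run on simulated data, with outcomes not reported here. Promoters are from RefSeq (GRCm38.p6). The siRNA sequences of 3p were not used here.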

Additional observations from a re-analysis of the deposited data

How the results depend on the processing

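The replicate block decides the number of genes called in 3p against SCR. With the block, limma called 47. Without it, limma called 1, edgeR 1 and DESeq2 5 genes, and *Stag1* was called in all of these. With the block, the count was 24 at a pseudocount of 10, 22 without a filter on low values, 31 over genes that reach a mean value of 50, 142 by DESeq2, 206 in the 4 libraries of 3p and SCR alone and 219 with the untreated and luciferase libraries as further controls. It stayed within 1.5 times at a pseudocount of 0.1 (44), with TMM scaling (41), with upper-quartile scaling (64) and with edgeR (50, of which 45 shared). Leaving out 1 library gave 2 to 49 genes, namely 10 without 3p of set 3, 5 without SCR of set 2, 2 without SCR of set 3 and 49 without 3p of set 2. The lone library of a group is then assumed to vary like the other groups. Of the 46 called genes other than *Stag1*, 21 were called under all 9 alternatives that kept the block and all 10 libraries, and 0 under every omission of 1 library. *Jmy* came nearest, with a largest adjusted p of 0.0552 by limma. No direction of a called gene changed under any alternative.

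The difference of *Stag1* ran from −2.28 to −2.51 over all alternatives and stayed past the threshold. The median of the naive list stayed below 0, from −0.06 without 3p of set 3 to −0.27 without 3p of set 2.

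For 3p against SP the count of 16 became 0 without the block by limma (183 at an unadjusted p under 0.05) and by edgeR (169), 4 by DESeq2 without it and 40 by DESeq2 with it. It was 2 to 21 on leaving out 1 library: 2 without SP of set 3, 6 without SP of set 2, 7 without 3p of set 3. For 3p against 5p the count of 537 became 0 without the block by limma (674 unadjusted) and by edgeR (632), and 88 by DESeq2. It was 84 to 650 on leaving out 1 library: 84 without 5p of set 3 and 136 without 3p of set 3. The alternatives without the block in edgeR and DESeq2 were chosen after seeing the data. Why these counts differ was not tested. Called genes held at least 170 reads in each library. Genes of low value, with fewer reads, carry more counting error.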

Other observations

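*Lars2*, which encodes the mitochondrial leucyl-tRNA synthetase, was at 2513 in 3p and 357 in SCR of set 2 and at 418 and 622 in set 3, so that the sets differed by 2.81 and −0.57 on the log2 scale (1.12 ± 0.65, adjusted p = 0.583 by limma). *Inhbb*, which encodes a subunit of activin and inhibin, was at 255 and 80.5 in SCR and at 177 and 15.4 in 3p (−1.42 ± 0.33, adjusted p = 0.0971 by limma). *Gbx2*, a homeobox gene of the LIF and STAT3 list, was at 397 and 425 in SCR and at 377 and 211 in 3p (−0.54 ± 0.18, adjusted p = 0.296 by limma). These 3 were chosen for the gap between the sets after their values were seen, none passed the test, and the cause of the gap was not tested.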
